A study of Mus musculus with 4 samples.

Results

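Photoreceptor and phototransduction genes were followed in tumour-bearing mouse eyes as a list of 37 members. They were chosen by name for their known expression in rods and cones, with earlier results of these data known. Of these, 34 were on the array in a probe set with a single gene symbol, and 32 were tested because the authors' detection calls gave Present for such a probe set on 2 or more of 4 arrays. The tested members were part of 13148 genes, and the brightest detected probe set, by mean log2 signal, stood for each gene. The list held 11 genes typical of rods, 9 typical of cones and 17 used by both or not assigned to either, of which 10, 8 and 14 were tested. The members not tested were Gucy2e and Grk1, Absent on all 4 arrays, and Nr2e3, Gucy2f and Cnga3, which had no such probe set.

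The samples were 2 arrays of intact C57BL/6 mice, which had no surgery, and 2 arrays of C57BL/6 mice whose spleen had been removed (splenectomized). All the mice, males and females over 7 weeks old, were injected in the eye's anterior chamber with 10000 E.G7-OVA cells that carried luciferase, and the eyes were taken on day 15. These tumour cells come from a T lymphoma of the mouse and make ovalbumin. No eye without a tumour was analysed here, and the arrays are labelled with numbers 1 and 2 in each group but not by animal or sex, so p-values measure only the spread between these samples. Each array measured the total RNA of a whole tumour-bearing eyeball, so that fewer photoreceptors and less RNA per photoreceptor cannot be told apart. The authors' detection calls were Present for 53.2% to 58.6% of probe sets, with the lowest share on the array of intact replicate 1.

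In a photoreceptor, light activates a visual pigment, the pigment activates the G protein transducin, and transducin switches on the phosphodiesterase PDE6. The enzyme breaks down cyclic GMP, channels held open by cyclic GMP close, and the cell hyperpolarises. Rods and cones run this cascade with separate but related subunits, and both arise under the homeodomain factor Crx, with Nrl and Nr2e3 directing the rod type. In the mouse retina rods far outnumber cones.

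The promoters of the members are shown first because Crx and Nrl were themselves measured. RefSeq starts on GRCm38.p6 were matched for 28 of the 37 members, and the 250 bases before each start were searched for short motifs on both strands. The Crx core was TAATCC, which on the other strand reads GGATTA. The part of the Nrl site searched was TGCTGA, which on the other strand reads TCAGCA. By their letters the 2 motifs cannot overlap each other. The Crx core was found before 12 of 28 members (42.9%), and before 6.25% of all 32851 RefSeq promoters of the same length. By type it was found before 4 of 8 rod members, 1 of 6 cone members and 7 of 14 members of both. The Nrl letters were found before 7 of 28 members (25.0%) and before 16.1% of all promoters. Both were found before 3 members (10.7%), against 0.962% of all promoters. The sequences below run 5′ to 3′ on the strand of the gene and end at the base before its start, with every match in capitals. Sag was the brightest rod member, Cngb1 and Crx had 2 Crx cores each, Aipl1 had both motifs, Gnat2 was the cone member with a Crx core, and Rgs9 had another order of arrays than the rod members. Members without a Crx core in this window had differing orders of arrays. Nrl, Pde6b, Slc24a1, Prph2, Rom1, Opn1sw, Opn1mw and Arr3 among them had the order of the rod members. The other tested ones, Rgs9, Pdc, Tulp1, Rdh12 and Pde6h, did not. Of the tested members with a Crx core, Rbp3 did not have that order and the rest did. Whether the motifs had a part in the signals was not tested.
Sag, chr1:87803430-87803679, plus strand: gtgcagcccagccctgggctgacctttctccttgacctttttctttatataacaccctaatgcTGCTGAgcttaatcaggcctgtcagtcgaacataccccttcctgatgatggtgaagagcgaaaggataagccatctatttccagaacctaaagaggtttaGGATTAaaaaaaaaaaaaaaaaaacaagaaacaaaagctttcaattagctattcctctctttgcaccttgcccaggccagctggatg
Cngb1, chr8:95306586-95306835, minus strand: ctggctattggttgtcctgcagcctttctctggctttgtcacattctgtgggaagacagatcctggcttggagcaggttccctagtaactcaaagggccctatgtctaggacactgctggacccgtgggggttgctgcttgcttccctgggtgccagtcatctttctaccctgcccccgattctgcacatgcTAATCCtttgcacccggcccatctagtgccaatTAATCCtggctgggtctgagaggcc
Crx, chr7:15879956-15880205, minus strand: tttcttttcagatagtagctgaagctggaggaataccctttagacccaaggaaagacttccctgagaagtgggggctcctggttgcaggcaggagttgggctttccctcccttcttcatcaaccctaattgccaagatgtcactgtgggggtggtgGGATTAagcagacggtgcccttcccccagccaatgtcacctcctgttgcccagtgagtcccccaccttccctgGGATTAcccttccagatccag
Aipl1, chr11:72037510-72037759, minus strand: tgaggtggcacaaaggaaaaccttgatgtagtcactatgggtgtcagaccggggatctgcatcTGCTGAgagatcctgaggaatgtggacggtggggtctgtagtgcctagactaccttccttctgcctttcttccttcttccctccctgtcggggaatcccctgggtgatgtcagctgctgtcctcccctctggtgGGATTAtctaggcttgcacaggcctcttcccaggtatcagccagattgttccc
Gnat2, chr3:108092816-108093065, plus strand: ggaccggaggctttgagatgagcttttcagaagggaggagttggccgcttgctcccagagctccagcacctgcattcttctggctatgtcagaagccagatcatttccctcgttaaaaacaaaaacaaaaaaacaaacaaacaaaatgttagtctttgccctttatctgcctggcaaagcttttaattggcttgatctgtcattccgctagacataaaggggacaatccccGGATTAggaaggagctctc
Rgs9, chr11:109298182-109298431, minus strand: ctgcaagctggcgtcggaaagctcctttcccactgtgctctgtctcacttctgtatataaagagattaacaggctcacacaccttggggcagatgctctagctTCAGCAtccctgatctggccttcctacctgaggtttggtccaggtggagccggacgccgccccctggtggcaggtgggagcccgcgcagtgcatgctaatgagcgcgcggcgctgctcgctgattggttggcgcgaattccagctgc
In these windows the Crx core began 87 bases before the start of Sag, 58 and 25 before Cngb1, 94 and 21 before Crx, 53 before Aipl1 and 19 before Gnat2. A match is a description of letters and not evidence of binding.

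Photoreceptor genes had overlapping values in splenectomized and intact eyes, 2 of the 32 members excepted, against 41.4% of all genes without overlap. They had a large and shared difference between the 2 intact eyes, with intact replicate 1 low and intact replicate 2 high, and both splenectomized eyes between them or near the higher. The rod transducin gene Gnat1 had a signal of 744 and 2937 on the intact arrays and of 2733 and 1775 on the splenectomized arrays. Over the 32 tested members, intact replicate 2 over intact replicate 1 had a median fold of 4.91. Splenectomized replicate 1 over splenectomized replicate 2 had a median fold of 1.71. For all genes tested these medians were 1.04 and 1.03, where genes higher and genes lower on an array offset each other. Intact replicate 2 was over 2-fold above intact replicate 1 for 12.4% of all genes. None of the members passed the threshold between the groups (limma, smallest adjusted p = 0.634), and the share of all genes that passed was 0%.

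**Figure D1:**
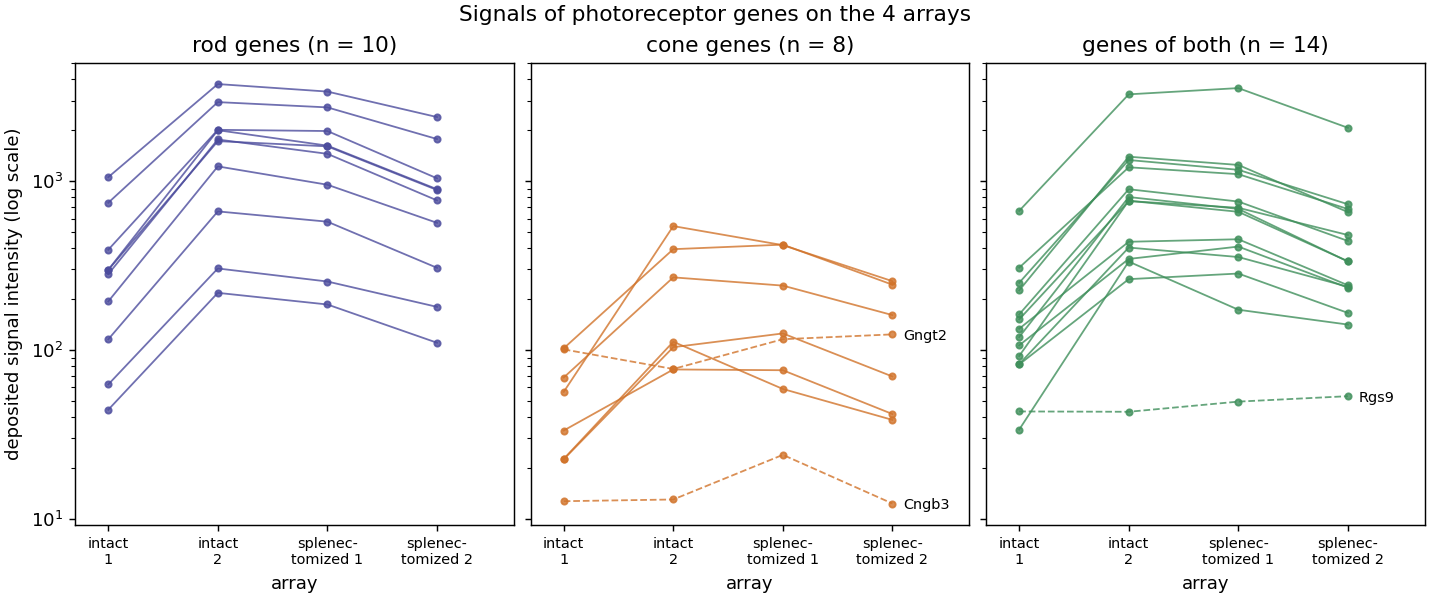
Deposited signal intensity (log axis) of each tested gene on the 4 arrays, with rods (n = 10), cones (n = 8) and genes of both types (n = 14) apart; a line joins the values of a gene and a dashed line marks Gngt2, Cngb3 and Rgs9. The rod genes have intact replicate 1 lowest and intact replicate 2 highest, and the dashed genes do not.

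Transducin carries the signal from the pigment to PDE6. Gnat1, its rod alpha subunit, had a mean signal of 1840 ± 1550 in the intact group and 2254 ± 677 in the splenectomized group (SD, n = 2 each). Its log2 fold change of 0.58 ± 0.66 (SE) was smaller than its standard error (limma, adjusted p = 0.777). Intact replicate 2 was 3.95-fold above intact replicate 1, and the splenectomized values lay between them. The rod gamma subunit gene Gngt1 was at 298 and 1725 in intact and at 1606 and 886 in splenectomized eyes, in the same order. It had the largest log2 fold change of the rod members, at 0.74 ± 0.85 (limma, adjusted p = 0.777). A pair of further Gngt1 probe sets followed the same order, but the dimmest, near background at 15 and 18.9 in intact and 14.2 and 7.3 in splenectomized eyes, did not. The cone alpha subunit gene Gnat2 was at 68.6 and 269 in intact and at 240.4 and 161 in splenectomized eyes. Its order of arrays was that of Gnat1, and the 3.92-fold difference between the intact arrays was close to that of Gnat1. Gngt2, the cone gamma subunit gene, was at 101 and 77.1 in intact and at 116 and 124 in splenectomized eyes. It was lower on intact replicate 2 than on intact replicate 1. Its groups did not overlap, as for 41.4% of all genes (log2 fold change 0.44 ± 0.23, limma, adjusted p = 0.634). Those of the other tested transducin genes did. Gngt2 is also known to be expressed in leukocytes, and the summed signal of the macrophage list, 13670 and 12213 in intact and 21930 and 23105 in splenectomized eyes, was higher in the same group. Whether leukocytes had a part in its value was not tested.

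PDE6 is a pair of catalytic subunits held by small inhibitory subunits. The rod catalytic genes are Pde6a and Pde6b. Pde6b was at 298 and 2002 in intact and at 1622 and 895 in splenectomized eyes, and its 6.72-fold difference between the intact arrays was the largest of the rod members. Pde6a was dimmer, at 44.2 (called Absent) and 218 in intact and at 186 and 110.3 in splenectomized eyes. The rod inhibitory subunit gene Pde6g was at 392 and 2012 in intact and at 1980 and 1039 in splenectomized eyes. All 3 rod genes had the order of Gnat1, and their intact values enclosed the splenectomized ones. In cones, the catalytic gene Pde6c was at 22.5 and 104 in intact and at 125 and 69.6 in splenectomized eyes. It had the largest log2 fold change of the cone members, 0.95 ± 0.78 (limma, adjusted p = 0.715). The cone inhibitory gene Pde6h, the cone member with the highest mean log2 signal, was at 102 and 395 in intact and at 420.4 and 243 in splenectomized eyes. In both cone genes splenectomized replicate 1, not intact replicate 2, was the highest array. Aipl1, a chaperone that PDE6 needs for its assembly, was at 152 and 762 in intact and at 695 and 479 in splenectomized eyes.

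The cyclic GMP channels and the exchanger carry the photoreceptor current. Cnga1, a rod channel subunit, was at 116 and 661 in intact and at 575 and 307 in splenectomized eyes. Its partner Cngb1 was at 62.4 and 304 in intact and at 254 and 179.9 in splenectomized eyes. The sodium, calcium and potassium exchanger gene Slc24a1 was at 194 and 1222 in intact and at 952 and 566 in splenectomized eyes. These rod genes again had intact replicate 1 lowest and intact replicate 2 highest. The cone channel gene Cngb3 was close to the background, at 12.7 and 13.0 in intact and at 23.9 and 12.3 in splenectomized eyes, where the median signal of probe sets called Absent was 6.1. At that signal the intact arrays differed by only 1.02-fold.

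Pigments and shut-off proteins were next. The short-wavelength cone pigment gene Opn1sw was at 56.4 and 541 in intact and at 418 and 255 in splenectomized eyes. Its intact arrays differed by 9.60-fold, the widest of the cone members. The middle-wavelength pigment gene Opn1mw was dimmer, at 33.3 and 76.6 in intact and at 75.8 and 41.7 in splenectomized eyes, and differed by 2.30-fold between the intact arrays. Arrestins bind the activated pigment and end its signal. The rod arrestin gene Sag was at 1055 and 3757 in intact and at 3391 and 2396 in splenectomized eyes. It was the brightest member and had the smallest log2 fold change of the rods, 0.52 ± 0.61 (limma, adjusted p = 0.780). The cone arrestin gene Arr3 was at 22.6 and 112 in intact and at 58.7 and 38.5 in splenectomized eyes. It was the only tested member with a negative log2 fold change, -0.08 ± 0.79 (limma, adjusted p = 0.973), and its probe sets disagreed. A second probe set had the same order, while the remaining one stayed between 30.5 and 42.6 on all arrays.

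Phosducin (Pdc) binds the beta and gamma subunits of transducin. It was at 666 and 3266 in intact and at 3556 and 2069.5 in splenectomized eyes, with the largest log2 fold change of the members of both types, 0.88 ± 0.77 (limma, adjusted p = 0.730). Recoverin (Rcvrn), a calcium sensor that restrains the pigment kinase, was at 92.0 and 765 in intact and at 658 and 335 in splenectomized eyes. Splenectomized replicate 1 was above splenectomized replicate 2 in both genes, as in the rod genes. Rgs9, which speeds the shut-off of transducin, was at 43.2 and 43.0 in intact and at 49.4 and 53.2 in splenectomized eyes. It had the smallest log2 fold change of its class, 0.25 ± 0.27 (limma, adjusted p = 0.766), and a ratio of 0.995 between the intact arrays. Its groups did not overlap, as for 41.4% of all genes. Its other probe sets were called Present on 1 array each.

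Guanylate cyclase remakes cyclic GMP, and its calcium-dependent activators are Guca1a and Guca1b. Guca1a was at 249.7 and 1333 in intact and at 1166.5 and 729.6 in splenectomized eyes. Guca1b was at 225 and 1395 in intact and at 1247 and 655 in splenectomized eyes. Both followed the order of the rod genes, with log2 fold changes of 0.68 ± 0.80 and 0.69 ± 0.89 (limma, adjusted p = 0.780 and 0.792). The cyclase genes themselves gave no tested value.

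The outer segment is a stack of membrane discs whose rims need Prph2 and Rom1. Rom1 was at 307 and 1207 in intact and at 1099 and 683 in splenectomized eyes. Prph2 was at 33.7 (called Absent) and 334 in intact and at 173 and 141 in splenectomized eyes. On the linear scale its mean was higher in intact (184 ± 212) than in splenectomized eyes (157 ± 22.4), while on the log2 scale the difference was 0.56 ± 1.06 the other way (limma, adjusted p = 0.852). Rp1, a microtubule protein of the outer segment, was at 162 and 895 in intact and at 757 and 442 in splenectomized eyes. Tulp1, needed for protein transport to the outer segment, was at 106 (called Absent) and 346 in intact and at 409 and 234 in splenectomized eyes.

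Retinoid handling returns spent chromophore. Abca4, a transporter that clears retinoids from discs, was at 82.4 and 404 in intact and at 355 and 237 in splenectomized eyes. Rbp3, the retinoid-binding protein of the space around the outer segments, was at 133.5 and 437 in intact and at 452 and 242 in splenectomized eyes. The retinal reductase gene Rdh12 was at 82.0 and 262.5 in intact and at 283 and 166 in splenectomized eyes. Rbp3 and Rdh12 were slightly higher on splenectomized replicate 1 than on intact replicate 2, and the other retinoid gene was not. A dimmer Rdh12 probe set, Present on all 4 arrays, differed in this, with 82.7 on intact replicate 2 and 67.2 on splenectomized replicate 1.

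The transcription factor genes had the same order of arrays as the rod members. Nrl, which directs the rod type, was at 281 and 1764 in intact and at 1450.5 and 769 in splenectomized eyes. Crx was at 119 and 805 in intact and at 684 and 334 in splenectomized eyes. Intact replicate 2 was 6.27-fold and 6.76-fold above intact replicate 1 for these genes, and their log2 fold changes between the groups were 0.58 ± 0.89 and 0.63 ± 0.93 (limma, adjusted p = 0.818 and 0.814). A further Crx probe set was dimmer, at 12.9 and 67.9 in intact and at 86.5 and 42.1 in splenectomized eyes.

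**Figure D2:**
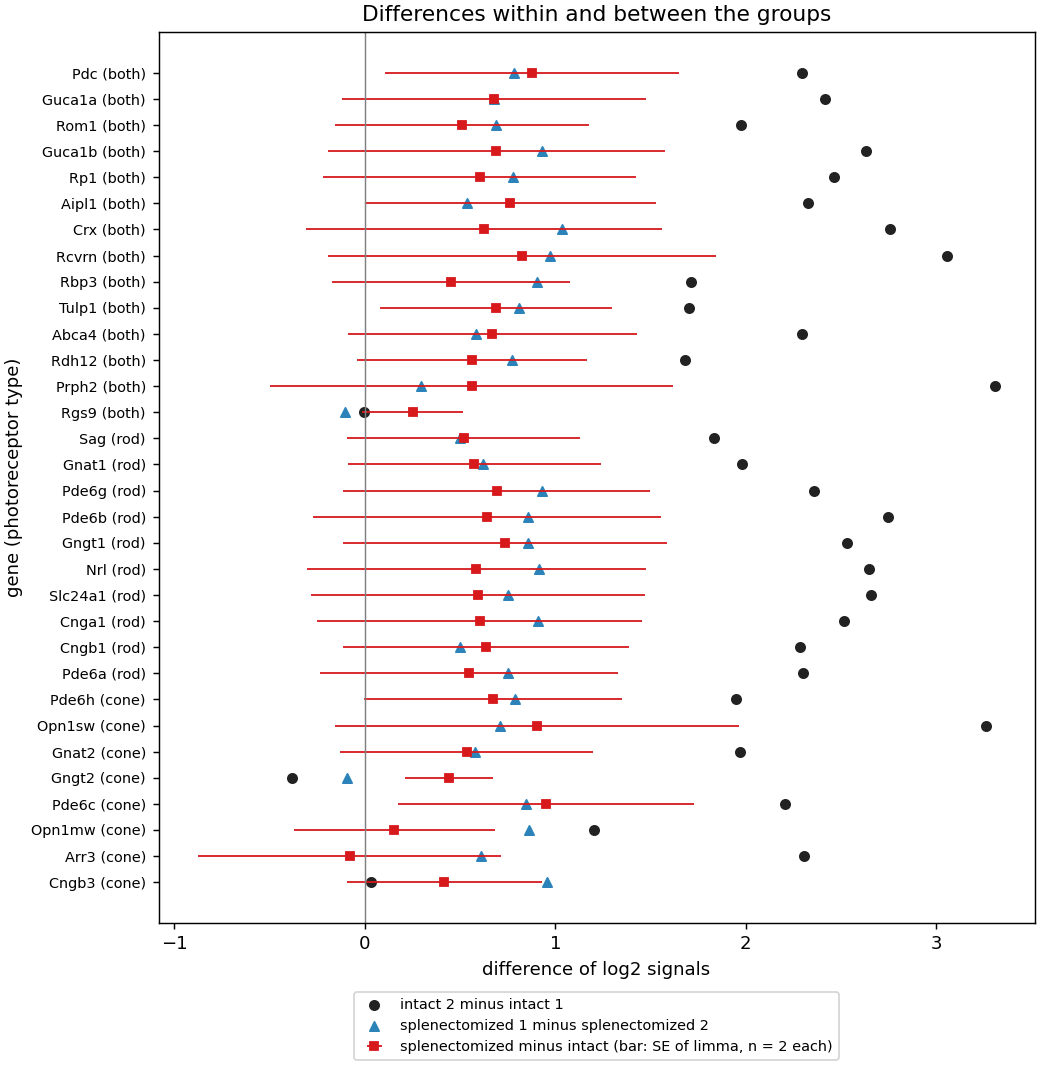
For each tested gene, the difference of log2 signals between the 2 intact arrays (circles), between the 2 splenectomized arrays (triangles) and between the group means (squares, with the SE of limma as a bar, n = 2 each). The circles lie right of the squares in most rows, Gngt2, Cngb3 and Rgs9 excepted, with a median of 2.30 for the circles and 0.60 for the squares.

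Counts over the tested members show how far the arrays differed. Intact replicate 2 was over 2-fold above intact replicate 1 for 29 of 32 members, where this held for 12.4% of all genes tested. It was over 4-fold above for 20 members, and for 3.23% of all genes. The exceptions at 2-fold were Gngt2, Cngb3 and Rgs9, named because of their values. Splenectomized replicate 1 was above splenectomized replicate 2 for 30 of 32 members, and for 55.5% of all genes. Intact replicate 1 was the lowest array for 29 members, and for 42.2% of all genes. The full order of intact replicate 1, splenectomized replicate 2, splenectomized replicate 1 and intact replicate 2, from low to high, was chosen after the values were seen. It was found in 10 of 10 rod members, 4 of 8 cone members and 9 of 14 members of both, and in 10.7% of all genes. The order was not particular to photoreceptors. Among the comparison lists below, 11 of 14 pigment epithelium and pigment cell genes, 9 of 12 skeletal muscle genes and 5 of 9 cornea genes had it. So did 8 of 20 inner retina, 4 of 8 Müller glia and 3 of 14 lens genes. The 2-fold difference between the intact arrays was found for 13 of 14 pigment and 13 of 14 lens genes.

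Between the groups, 31 of 32 members had a log2 fold change above 0, which 55.1% of all genes had. The median log2 fold change was 0.60 for the rods, 0.49 for the cones, 0.65 for the members of both and 0.60 for all 32, where that of all genes was 0.05. These medians lie within the spread of the intact arrays. The score of all members, the mean of log2 signals minus each gene's mean over the 4 arrays, was -0.29 ± 1.48 in intact and 0.29 ± 0.50 in splenectomized eyes (SD, n = 2 each). Only 2 members, Gngt2 and Rgs9, had groups that did not overlap, against 41.4% of all genes. Both were higher in splenectomized eyes, and groups without overlap in that direction were found for 21.7% of all genes. At an unadjusted p under 0.05, 0 members differed, against 8.97% of all genes. The adjusted p of limma over the members ran from 0.634 to 0.973.

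The sign of the group difference depended on which intact array was kept. Without intact replicate 1 the median log2 fold change of the 32 members was -0.48, with 29 of them lower in splenectomized eyes. In that fit Prph2 alone passed, at -1.09 (limma, adjusted p = 0.0283), where 0.228% of all genes passed lower and 1.83% higher. Without intact replicate 2 the median was 1.82, all 32 members were higher in splenectomized eyes, and 27 passed (limma, smallest adjusted p = 2.31e-05). In that fit 15.9% of all genes passed higher and 5.64% lower. Both fits compare a lone intact array, assumed to vary like the splenectomized ones, with a pair that differed less, so their p-values do not carry the spread of the intact eyes. Without splenectomized replicate 1 or 2 the median was 0.25 or 0.98, and no member passed.

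**Figure D3:**
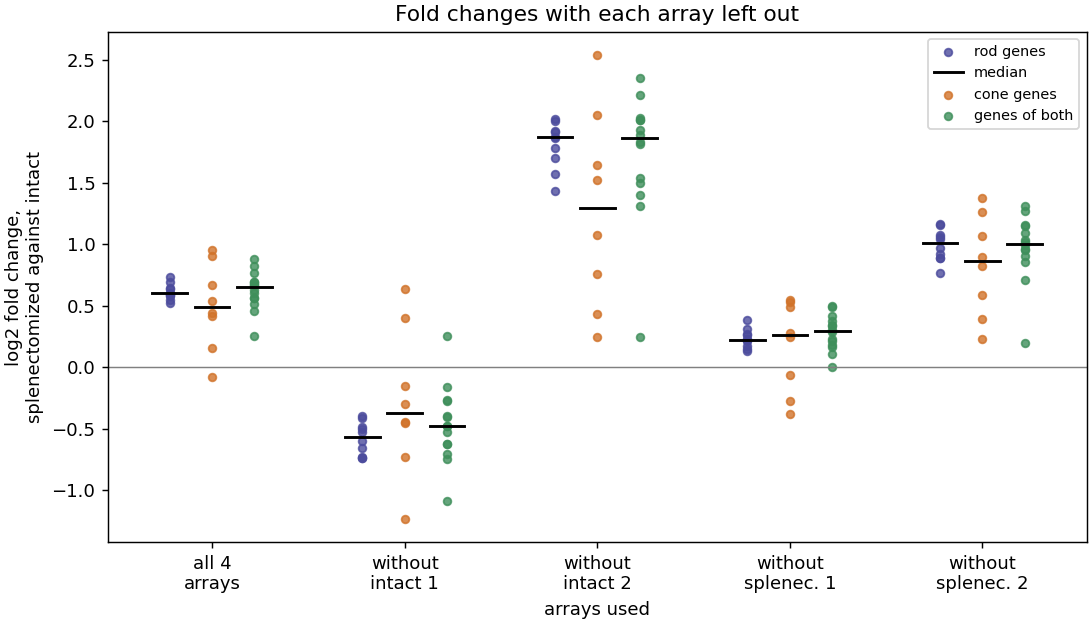
Log2 fold change of splenectomized against intact eyes for each tested rod, cone and shared gene (points, with the median of each type as a bar), with all 4 arrays and with each array left out. The points lie mostly below 0 without intact replicate 1 and all above 0 without intact replicate 2.

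Rod and cone scores were both lowest on intact replicate 1, while the highest array was intact replicate 2 for rods and splenectomized replicate 1 for cones. The rod score was -1.50 and 0.89 on the intact arrays and 0.69 and -0.07 on the splenectomized arrays, and the cone score was -1.03 and 0.54, and 0.58 and -0.08. The rod minus the cone score was -0.47 and 0.35 in intact and 0.11 and 0.01 in splenectomized eyes. Its difference between the groups, 0.11, was smaller than the SD of 0.58 within the intact pair, and it ran from -0.30 to 0.52 with an intact array left out. Between the intact arrays the rods differed by 3.56-fold to 6.72-fold, with a median log2 difference of 2.44. The cones differed by 0.766-fold to 9.60-fold, with a median log2 difference of 1.96. The cone members had lower signals on this array, with a summed signal of 419 to 1588 against 3484 to 16602 for the rods (probe sets differ in response, so the sums do not compare amounts of RNA). Cones and members of both also held the 3 exceptions.

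The 34 members on the array had 50 probe sets, and 12 members had several. Of the 16 not used for tested members, 11 were Present on at least 2 arrays, and in 9 of these intact replicate 2 was over 2-fold above intact replicate 1. The others were the dimmest probe set of Gngt1 and the Arr3 probe set that stayed level.

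Other genes of photoreceptors, from a list that holds none of the members, had the same order of arrays in their score, as did 15 of the 24 tested genes singly. Of 30 listed genes 24 were tested, 21 with a log2 fold change above 0 and 3 below. None passed (limma, smallest adjusted p = 0.659), and the median log2 fold change was 0.54. Their score was -1.18 and 0.69 on the intact arrays and 0.52 and -0.04 on the splenectomized arrays. Prom1, a membrane protein of forming discs and the brightest of them, was at 450.2 and 1685 in intact and at 1606 and 1004 in splenectomized eyes. The potassium channel subunit gene Kcnv2 had the lowest log2 fold change of the list, -0.49, at 52.5 and 81.4 in intact and 59.9 and 36.2 in splenectomized eyes. Intact replicate 1 was the lowest array for 23 of the 24.

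The score of these other genes was subtracted from each array, a step chosen after the values were seen. The range of a member over the 4 arrays then fell from a median log2 of 2.32 to 0.68, and it was smaller for 29 of 32 members. For rods the median range went from 2.44 to 0.64, for cones from 2.01 to 0.81 and for members of both from 2.37 to 0.57. The brightest rod member Sag kept a range of 0.08, Gnat1 of 0.18 and the cone gene Gnat2 of 0.11. Gngt2, Cngb3 and Rgs9 widened, to 2.26, 1.84 and 1.88, which follows from subtracting a score whose order they did not share. Members already in the order of that score narrow by the same arithmetic, so the ranges are a description only. The lens score ran over a similar span, from -1.20 to 0.58. Relative to the other photoreceptor genes, the median log2 fold change was 0.11 for rods, 0.0032 for cones and 0.16 for members of both. No member passed in that fit (limma, smallest adjusted p = 0.99994). The score was subtracted from all genes there, which put its array differences into genes that did not share them. As the estimate of spread is shared over genes, the p-values of that fit say nothing about the members.

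**Figure D4:**
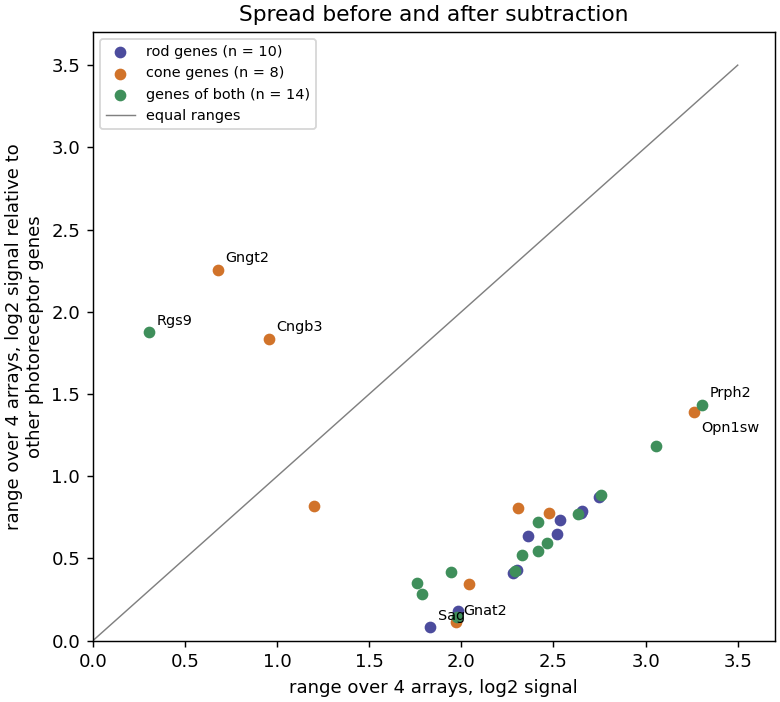
Range of each tested gene over the 4 arrays in log2 signal (horizontal axis) against its range after subtraction of the score of other photoreceptor genes (vertical axis), with rods, cones and genes of both types in colour and a line of equal ranges. Gngt2, Cngb3 and Rgs9 lie above the line and the other 29 genes below it.

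Scores of other eye tissues moved with those of the photoreceptors. Inner retina neurons had a score of -1.24 and 0.62 in intact and 0.66 and -0.04 in splenectomized eyes, over 20 tested of 27 genes. Their summed signal was 1377 and 4848 in intact and 4983 and 2905 in splenectomized eyes. A log2 fold change above 0 was found for 17 of the 20 genes (55.1% of all genes). Intact replicate 1 was the lowest array for 18 of the 20 (42.2% of all genes), Rbpms and Pou4f1 excepted. Rbpms, named after its values were seen, was at 122.7 and 108.5 in intact and at 98.5 and 122.9 in splenectomized eyes. Müller glia, the radial support cells of the retina, had a score of -1.12 and 0.51, and 0.48 and 0.12, with all 8 genes tested and summed signals of 1571 and 4055, and 3742 and 2854. Glul, the glutamine synthetase gene of these cells, was at 791 and 1885 in intact and at 1697 and 1142 in splenectomized eyes. Pigment epithelium and pigment cell genes scored -1.34 and 0.86, and 0.47 and 0.01, over 14 of 16 genes, with sums of 2959.6 and 11902, and 8985 and 7366. The lens list scored -1.20 and 0.53, and 0.58 and 0.09, over 14 of 16 genes, with sums of 18382 and 45957, and 48147 and 39578. Intact replicate 1 thus had the lowest score for the retina, pigment cell and lens lists alike.

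Lists outside the retina and lens differed from each other. The skeletal muscle and cornea scores had the order of arrays of the rod members, and the T cell and macrophage scores did not. Skeletal muscle genes scored -1.17 and 1.18 in intact and 0.18 and -0.19 in splenectomized eyes, over 12 of 14 genes. Their summed signal was 621 and 2331 in intact and 1292 and 1089 in splenectomized eyes. The cornea list scored -0.56 and 0.54, and 0.11 and -0.09, over 9 genes, with sums of 8878 and 14568.5, and 12874 and 11543. The T cell and lymphoma list ran the other way, at 0.22 and -0.17 in intact and -0.10 and 0.05 in splenectomized eyes, over 9 tested genes. Its summed signal was 11438 and 8816 in intact and 8195 and 9669 in splenectomized eyes. Cd3d, a chain of the T cell receptor complex and the brightest of the list, was at 4010.4 and 3196 in intact and at 2986 and 3476 in splenectomized eyes. Of the 9 genes, 6 had a log2 fold change below 0 and 3 above. Intact replicate 1 was the lowest array for 2 of them, against 42.2% of all genes. The macrophage list scored -0.47 and -0.43 in intact and 0.44 and 0.47 in splenectomized eyes, over 12 genes. No tested gene of these lists had a signal of 0. The part of tumour size, of the tissue taken or of these cells in the photoreceptor values was not tested.

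**Figure D5:**
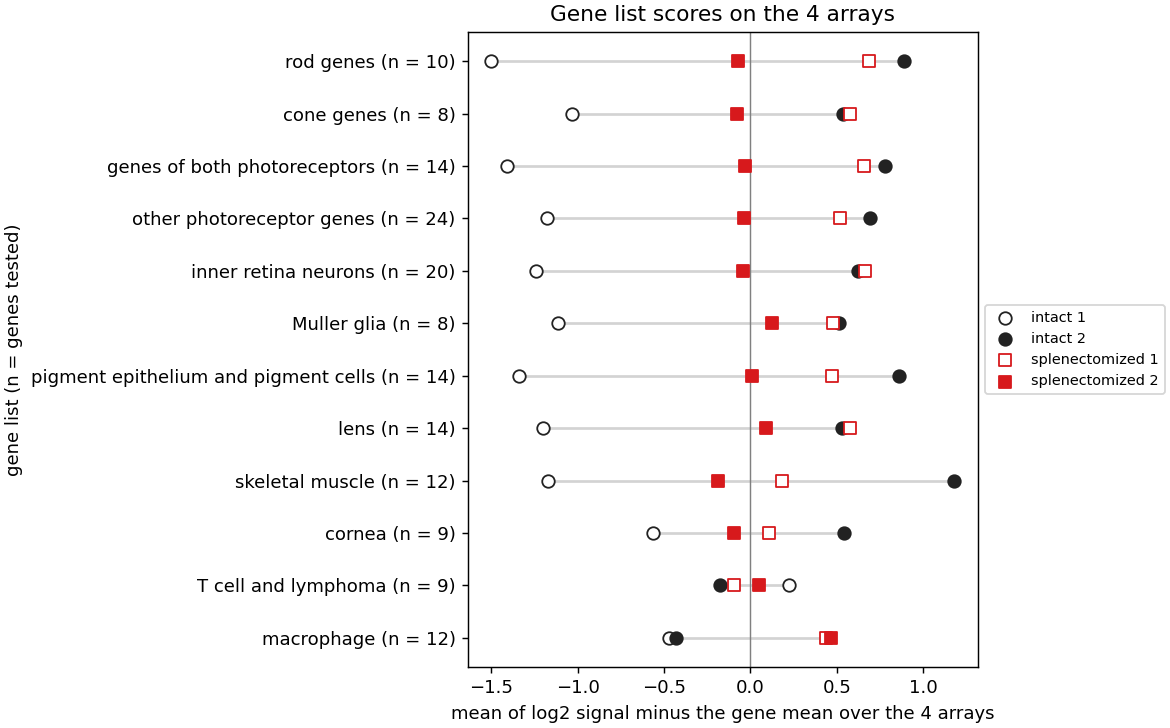
Score of each gene list on the 4 arrays, the mean of log2 signals minus each gene's mean over the arrays (horizontal axis), with intact arrays as circles and splenectomized arrays as squares. Intact replicate 1 (open circle) is lowest for the eye lists and highest for the T cell and lymphoma list, and the macrophage list separates the groups.

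Genes that the retina induces under stress had another order of arrays. The list, whose genes are also expressed outside the retina, scored -0.45 and 0.0036 in intact and 0.29 and 0.15 in splenectomized eyes, over 11 of 12 genes. All 11 had log2 fold changes above 0 (55.1% of all genes), with a median of 0.47, and 0 passed (limma, smallest adjusted p = 0.360). An unadjusted p under 0.05 was found for 4 of them, against 8.97% of all genes, and groups without overlap for 5 of them, against 41.4% of all genes. Lif, a cytokine of the retinal stress response, was at 26.3 and 24.3 in intact and at 50.9 and 42.6 in splenectomized eyes (limma, adjusted p = 0.527). Its groups did not overlap and its intact arrays were close, while Edn2 and A2m of the same list, named after their values were seen, were 3.25-fold and 2.78-fold higher on intact replicate 2 than on intact replicate 1.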

How the data were processed

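Total RNA of tumour-bearing eyes was labelled from 500 ng with a 3'-IVT Express kit, per the labels' protocols. The deposited values are linear signal intensities, for which the submitters' processing notes name GCOS 1.4 and MAS5. The deposited detection calls are Present, Marginal or Absent per probe set, in the array order of the file header. No source used here gives the target signal of the scaling.

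Signals were log2-transformed without a pseudocount after the 7 signals of 0 had been raised to 0.1. GEO's platform annotation gave 1 gene symbol to 34945 of 45101 probe sets, several to 932 and none to 9160, and 64 were controls. limma 3.58.1 under R 4.3.3 (lmFit, eBayes with an intensity trend) compared splenectomized with intact mice over 13148 genes, two-sided, with Benjamini-Hochberg adjustment and an adjusted p under 0.05 as the call. With 4 arrays there were 2 residual degrees of freedom. The procedure was tested on simulated data. Those data had independent noise for each gene and array, unlike the differences between arrays that many genes shared here. The number of arrays limits the precision. Any 2 arrays correlated across genes with r of 0.942 to 0.981.

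The members, the classes, the comparison lists and the alternatives were chosen with earlier results of these data known, so lists are described without tests. By a rule for named genes, full values were given for the brightest, the most changed and the transcription factor members, and up to 3 genes per list (highest, lowest and brightest). Values of the remaining members, including the exceptions Gngt2 and Cngb3, were added after they were seen. Promoters are from RefSeq. Figures used matplotlib 3.10.9 under Python 3.11.15.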

Additional observations from a re-analysis of the deposited data

How the results depend on the processing

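With all 4 arrays, 0 members passed in every setting tried. Over all genes 0 passed, except 1 with quantile normalization, 2 after subtraction of the other photoreceptor genes and 99 with crossed replicate numbers. That subtraction and the crossing of replicate numbers were added after the data were seen. The medians of the rod, cone and shared members kept their sign with other scalings, a pseudocount of 16, a floor at 6.1, other detection filters, no intensity trend and other choices of probe set. Leaving out an array moved them, from -0.57 to 1.87 for rods, -0.38 to 1.30 for cones, -0.48 to 1.86 for members of both and -0.48 to 1.82 for all, and the count of members called from 0 to 27 and of genes from 0 to 2830. The rod minus cone difference ran from -0.30 to 0.52. The log2 fold change with an array left out ran over -0.41 to 1.57 for Gnat1, -0.53 to 2.002 for Gngt1, -0.61 to 1.70 for Pde6a, -0.73 to 2.02 for Pde6b, -0.49 to 1.87 for Pde6g, -0.40 to 1.43 for Sag, -0.66 to 1.86 for Cnga1, -0.51 to 1.78 for Cngb1, -0.48 to 1.498 for Rom1, -1.09 to 2.21 for Prph2, -0.74 to 1.91 for Nrl, -0.70 to 2.35 for Rcvrn, -0.63 to 1.83 for Rp1, -0.48 to 1.81 for Abca4, -0.53 to 1.89 for Guca1a, -0.63 to 2.01 for Guca1b, -0.27 to 2.03 for Pdc, -0.40 to 1.31 for Rbp3, -0.74 to 1.92 for Slc24a1, -0.75 to 2.01 for Crx, -0.45 to 0.76 for Opn1mw, -0.73 to 2.53 for Opn1sw, -1.23 to 1.07 for Arr3, -0.45 to 1.52 for Gnat2, -0.30 to 1.65 for Pde6h, -0.15 to 2.05 for Pde6c, -0.063 to 0.90 for Cngb3, -0.16 to 1.54 for Tulp1, -0.40 to 1.93 for Aipl1, -0.28 to 1.402 for Rdh12, 0.25 to 0.63 for Gngt2 and 0.20 to 0.30 for Rgs9. In further settings the sign turned for Opn1mw with quantile normalization (-0.0019), for Arr3 with the mean of probe sets (0.054) and for Gngt1 without cross-hybridizing probe sets (-0.73, from its dimmest probe set). Relative to the other photoreceptor genes it turned for Rbp3 (-0.031), Rgs9 (-0.23), Opn1mw (-0.33), Gngt2 (-0.043) and Cngb3 (-0.068), and the median of all genes was -0.44. These turns and this median follow from the subtraction, which lowered every log2 fold change by the same amount. The Arr3 value is the mean over its probe sets, which were at -0.080, -0.091 and 0.33. The cause of the Opn1mw turn was not tested. Same-numbered arrays deviated oppositely across genes (r = -0.44), and the labels do not say that numbers pair animals. With the replicate block 0 genes and 0 members passed, and with crossed numbers 99 genes and 0 members. Signals near the background limit Cngb3 and the dimmer probe sets.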
